A study of Mus musculus with 46 samples.

Results

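Genes of the folding machinery of the endoplasmic reticulum and of its stress response were followed in mouse bone marrow-derived macrophages: Hspa5, Hsp90b1, Dnajb9, Sdf2l1, Calr, Canx, Pdia3, Pdia4, Pdia6 and Xbp1. They were chosen by symbol with earlier results of these data known, so their counts beside the shares of all genes are a description. All 10 were found among the 24671 genes of the count table and passed the filter on low counts. The cells, macrophages grown in culture from bone marrow, had received compounds that act on estrogen receptors or on liver X receptors (LXR), which sense oxysterols, and polyadenylated RNA was sequenced in 46 libraries. Each of the 8 treated groups had 5 libraries: GSK2033, an LXR antagonist, with 27-hydroxycholesterol (27HC), an oxysterol that binds both kinds of receptor; ICI, commonly the estrogen receptor antagonist fulvestrant, with 27HC; GW3965, a synthetic LXR agonist, with a second compound; and 27HC, GW3965, GSK2033, ICI and estradiol (E2) each alone. The Vehicle group had 6 libraries. For GW3965 with a second compound, the titles name 27HC and the other labels name ICI, so the second compound is left unnamed. Mouse strain, genotype, sex, age, doses and exposure times are not given in the labels used here. Nothing in them tells whether the replicates are different animals or cultures. The p-values here set differences between groups against the spread between these libraries, which may be technical.

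Proteins destined for secretion or for membranes fold in the endoplasmic reticulum. When unfolded chains accumulate there, the sensors IRE1, ATF6 and PERK start the unfolded protein response: IRE1 splices the Xbp1 transcript into the form that encodes an active transcription factor, ATF6 is cut to release another, and PERK slows translation and favours ATF4. The first pair of factors switch on chaperone genes, of which Hspa5, encoding BiP, is the usual readout, while ATF4 acts more on amino acid and redox genes. In macrophages this response accompanies loading with free cholesterol and saturated lipid, and IRE1 and XBP1 also take part in cytokine production.

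Many promoters of such chaperone genes carry an endoplasmic reticulum stress element (ERSE), a CCAAT box and a CCACG box held at a fixed spacing, at which ATF6 and XBP1 bind with NF-Y. RefSeq promoters of GRCm38.p6, from 250 bases before to 50 after each start site, were searched on both strands for CCAAT followed after any 9 bases by CCACG. The motif was first derived from genes of this kind, so its presence among them is not independent of their choice. It stood in 39 of 32851 promoters (0.119%) and in those of Hspa5, Hsp90b1, Calr, Canx and Pdia6, 5 of the 10. The sites, a sequence feature that 5 of the 10 members share, are shown with 10 flanking bases on either side. They run 5′ to 3′ in the sense of the gene, with positions counted from the RefSeq start and the motif in capitals. In Calr and at the downstream site of Hsp90b1 it lies on the opposite strand and so reads CGTGG, 9 bases and ATTGG.
Hspa5, positions -65 to -47: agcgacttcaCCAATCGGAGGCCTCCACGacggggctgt
Hsp90b1, positions -212 to -194: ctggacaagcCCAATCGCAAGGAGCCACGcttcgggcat
Hsp90b1, positions -107 to -89: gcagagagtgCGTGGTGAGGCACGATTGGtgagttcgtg
Calr, positions -162 to -144: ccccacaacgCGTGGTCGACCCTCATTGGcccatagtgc
Canx, positions -145 to -127: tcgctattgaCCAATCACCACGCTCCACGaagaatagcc
Pdia6, positions -98 to -80: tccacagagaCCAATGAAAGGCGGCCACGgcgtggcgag
Other elements were searched in the same way: ERSE-II (ATTGG, 1 base, CCACG; in 0.0365% of all promoters), the XBP1 element TGACGTGG (0.676%), the ATF4 element TTGCATCA (0.895%), an LXR element (AGGTCA repeated after 4 bases; 0.0152%) and an estrogen response element (GGTCA, 3 bases, TGACC; 0.07%). None of these was found in any of the 10 windows, so no motif overlapped another there. A match describes these letters only, as does the lack of one.

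The 3 genes with the widest ranges of level were Hspa5, Sdf2l1 and Dnajb9, and the 250 bases before their RefSeq starts are given for comparison, again with the ERSE in capitals. The Hspa5 stretch is chr2:34771840-34772089 on the plus strand, that of Sdf2l1 is chr16:17132384-17132633 on the minus strand and that of Dnajb9 is chr12:44210069-44210318 on the minus strand.
Hspa5: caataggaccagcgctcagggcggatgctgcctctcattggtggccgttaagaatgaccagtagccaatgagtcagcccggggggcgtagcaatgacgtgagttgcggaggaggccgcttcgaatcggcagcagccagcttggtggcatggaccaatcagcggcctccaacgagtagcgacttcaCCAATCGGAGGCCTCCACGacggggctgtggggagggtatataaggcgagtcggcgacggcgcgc
Sdf2l1: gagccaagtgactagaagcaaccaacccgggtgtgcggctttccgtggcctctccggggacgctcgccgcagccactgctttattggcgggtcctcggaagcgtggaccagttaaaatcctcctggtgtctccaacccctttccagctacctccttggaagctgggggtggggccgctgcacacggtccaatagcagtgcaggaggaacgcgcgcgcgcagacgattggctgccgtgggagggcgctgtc
Dnajb9: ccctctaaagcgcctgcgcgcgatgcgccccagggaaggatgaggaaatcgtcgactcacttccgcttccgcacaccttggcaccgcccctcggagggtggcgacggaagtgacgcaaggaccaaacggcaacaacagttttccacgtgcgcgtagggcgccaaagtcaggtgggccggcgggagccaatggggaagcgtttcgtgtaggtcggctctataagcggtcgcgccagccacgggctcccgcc
Hspa5 carries the motif, and Sdf2l1 and Dnajb9 do not in the windows searched. The Dnajb9 window lies inside the annotated span of that gene (chr12:44205559-44210326), so bases before that span were not searched. Among the 5 carriers of the motif are Hspa5, with one of the widest ranges, and Canx, with the narrowest.

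Depth, as the sum of estimated counts, was 19354093 to 30921038 in a library. The deepest was ICI replicate 5, where the other ICI libraries had 21018541 to 24573633. Over genes with a mean of at least 5 CPM, the root mean square deviation of a library from its group mean was 0.1103 to 0.1503 log2 CPM. A member gene had at least 1073 counts in every library (Dnajb9) and up to 69959 (Calr). Levels are log2 CPM, a count scaled to library size and composition, and a change is a log2 fold change with its standard error (SE). A gene is called higher or lower where edgeR's quasi-likelihood test, adjusted by Benjamini-Hochberg over 13838 genes, gave an adjusted p under 0.05. Because the RNA is from bulk cultures, fewer cells of a type and less RNA per cell cannot be told apart. Of macrophage markers, all 8 were expressed, and their summed level ran from 9186 to 17690 CPM in libraries of the treated groups other than E2, from 21950 to 23510 CPM with E2 and from 20880 to 22820 CPM with Vehicle. The sum was led by Lyz2 and Adgre1, and the markers did not all move one way. With 27HC 1 of the 8 was called higher and 6 lower, against 20.3% and 20.0% of all genes. Mean Cd68 was 1192 CPM with Vehicle and higher in every treated group but E2, such as 1417 CPM with 27HC.

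All 10 genes differed among the 9 groups, as did 75.3% of all genes tested. With every treatment but E2 their summed share of counts was higher than with Vehicle. The 10 genes together took 0.789% ± 0.015 (SD, n = 5) of all counts with GSK2033 + 27HC, 0.726% ± 0.0078 with GW3965 + second compound, 0.675% ± 0.0041 with GW3965, 0.664% ± 0.013 with ICI + 27HC and 0.651% ± 0.0081 with 27HC. The share was 0.633% ± 0.0076 with ICI, 0.628% ± 0.012 with GSK2033 and 0.52% ± 0.0043 with E2, against 0.53% ± 0.0064 (SD, n = 6) with Vehicle. Per kilobase of the principal transcript, the Vehicle level was 777 CPM for Calr, the highest, 298 for Pdia3, 230 for Hsp90b1, 209 for Hspa5 and 167 for Canx. It was 114 CPM per kilobase for Pdia6, 71.4 for Xbp1, 64.1 for Pdia4, 53.8 for Sdf2l1 and 22.2 for Dnajb9. The group means of the low-level BiP cofactors spanned 2.45-fold (Sdf2l1) and 2.01-fold (Dnajb9), against 2.53-fold for Hspa5 and 1.37-fold for the most abundant gene, Calr.

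**Figure D1:**
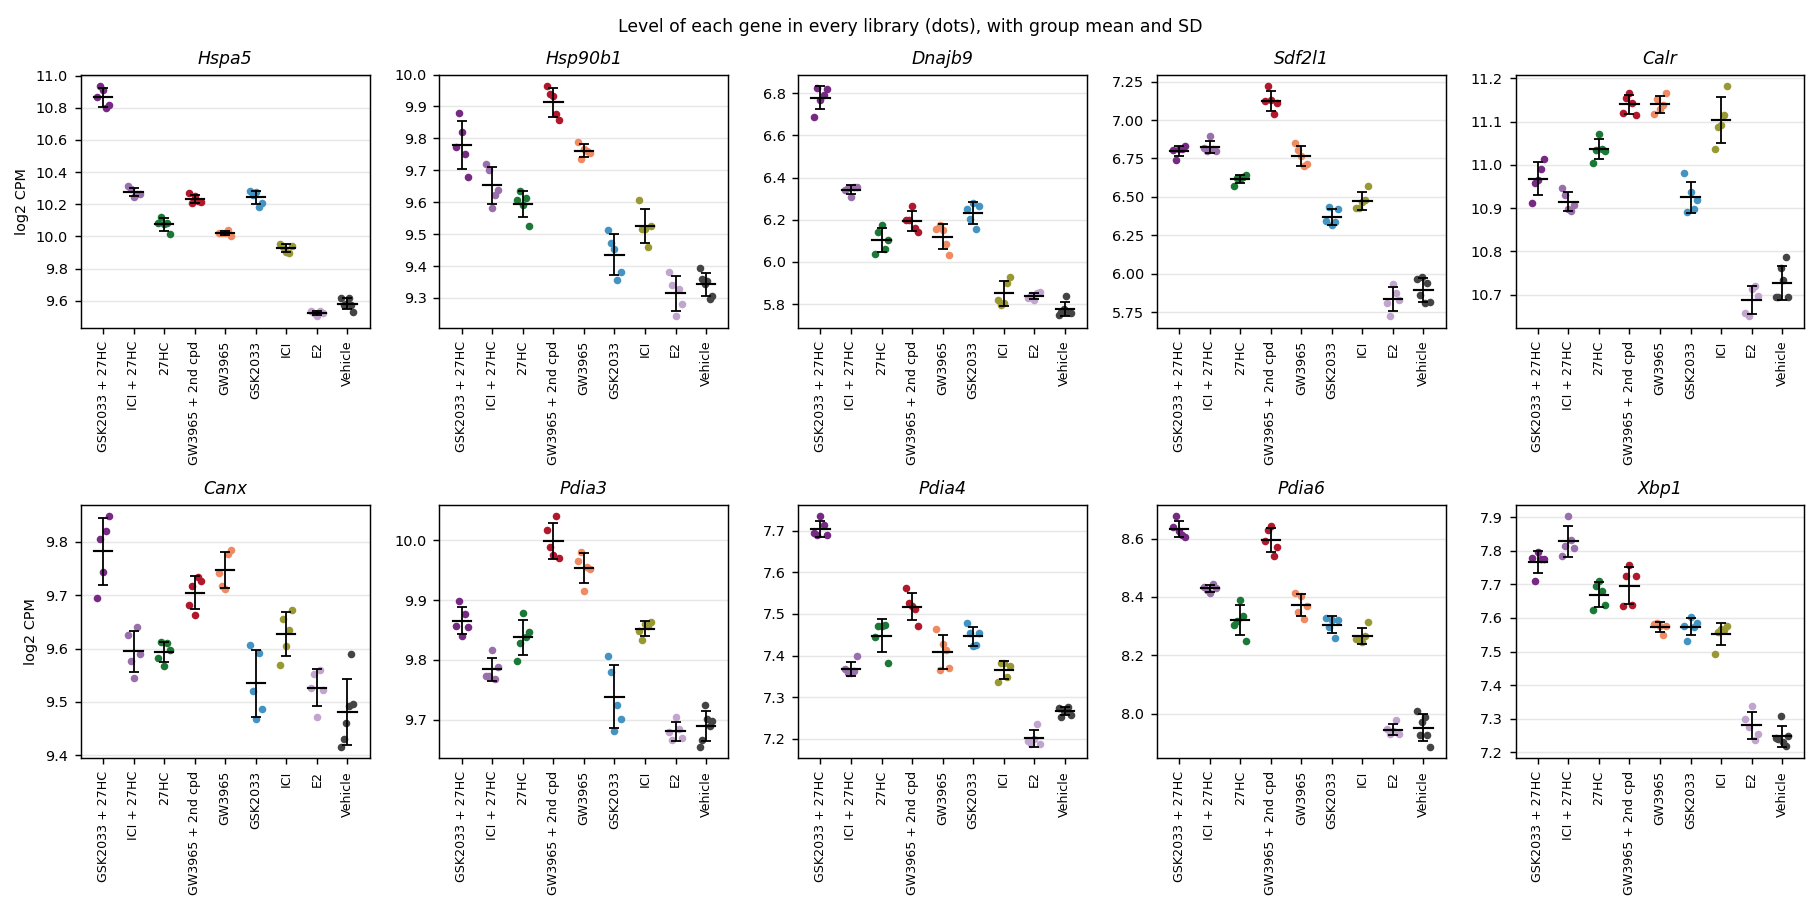
Level of each gene in log2 CPM (vertical axis, one panel per gene, each with its own scale) in every library (dots), with the group mean and SD as bars, for the 8 treated groups and Vehicle at the right. GSK2033 + 27HC libraries stand above all others for Hspa5, Dnajb9 and Pdia4, and E2 libraries overlap Vehicle libraries for every gene but Pdia4.

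Against Vehicle, the 27HC, GW3965, GSK2033 + 27HC, ICI + 27HC and GW3965 + second compound groups each had all 10 genes called higher. The share of all genes called higher was 20.3% with 27HC, 23.1% with GW3965, 24.1% with GSK2033 + 27HC, 26.6% with ICI + 27HC and 25.2% with GW3965 + second compound. In these comparisons 0 members were called lower, against 20.0%, 21.1%, 26.4%, 26.4% and 24.4% of all genes in the same order, and no member had a negative fold change. The median log2 fold change of the 10 genes was 0.48 with GSK2033 + 27HC, 0.43 with GW3965 + second compound, 0.39 with ICI + 27HC, 0.38 with GW3965 and 0.32 with 27HC. Medians over all genes tested lay between -0.008 and 0.009 in all 8 comparisons with Vehicle.

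GSK2033 alone had 9 genes called higher and 0 lower, against 18.4% and 17.9% of all genes, with a median of 0.26; Canx was the exception. ICI alone also had 9 called higher and 0 lower, against 13.9% and 12.5% of all genes, with a median of 0.24, and there Dnajb9 was the exception. With E2, 0 genes were called higher and 1, Pdia4, was called lower, against 2.2% and 2.49% of all genes, and the median was -0.018. In that comparison 3 members had an unadjusted p under 0.05 by edgeR, and DESeq2 also called 0 higher and 1 lower. These 8 comparisons share the Vehicle libraries and are therefore not independent of each other. Members called higher were thus found with both the LXR agonist GW3965 and the LXR antagonist GSK2033, and with ICI of the estrogen receptor ligands; the difference between ICI and E2 was not itself tested.

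**Figure D2:**
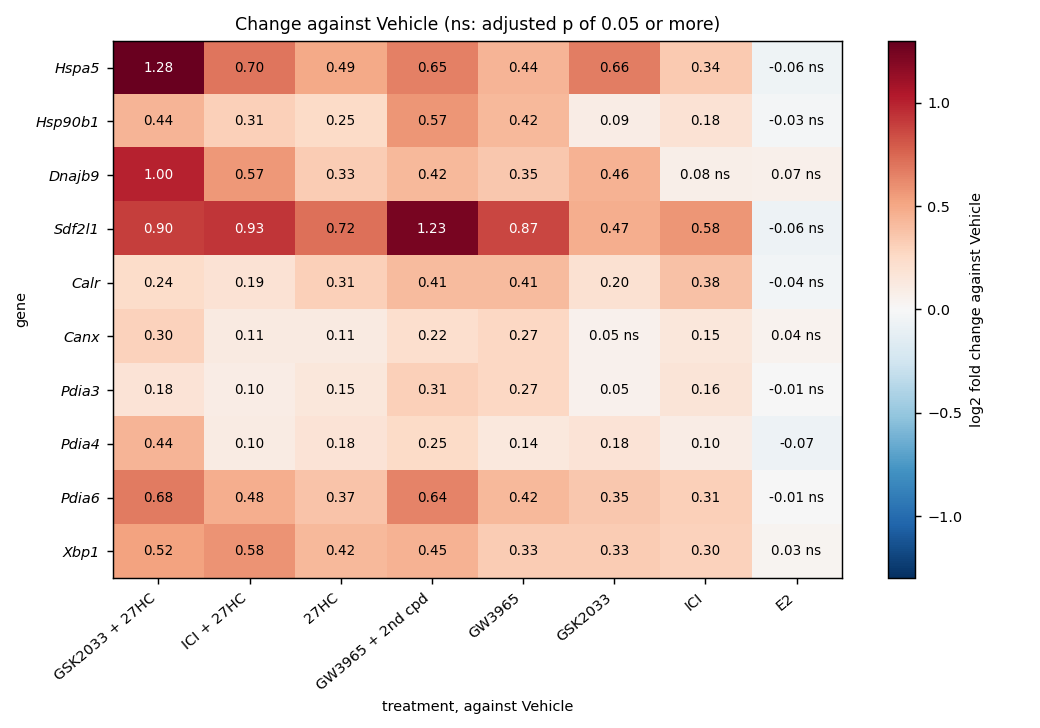
Log2 fold change of each gene (rows) in each treated group against Vehicle (columns), with the value printed in each cell and colour from blue (lower) to red (higher). The highest values are those of Hspa5 with GSK2033 + 27HC (1.28) and of Sdf2l1 with GW3965 + second compound (1.23), and the E2 column stays within 0.07 of 0.

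BiP, encoded by Hspa5 (ENSMUSG00000026864, chr2:34771970-34777547 on the plus strand of GRCm38), is the HSP70 chaperone of the endoplasmic reticulum and holds the 3 stress sensors inactive. Its level in the 5 libraries was 10.87, 10.94, 10.91, 10.80 and 10.82 log2 CPM with GSK2033 + 27HC. It was 10.28, 10.26, 10.28, 10.19 and 10.21 with GSK2033, and 10.08, 10.12, 10.07, 10.08 and 10.01 with 27HC, against 9.53 to 9.62 (median 9.58) in the 6 Vehicle libraries. The combination thus stood clear of both single compounds, which themselves stood clear of Vehicle. The log2 fold change against Vehicle was 1.28 ± 0.022 (SE; 2.44-fold, adjusted p = 1.97e-39) with GSK2033 + 27HC, 0.66 ± 0.022 (adjusted p = 4.78e-28) with GSK2033 and 0.49 ± 0.022 (1.41-fold, adjusted p = 9.72e-24) with 27HC.

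All other groups lay below the combination. Hspa5 was at 10.31, 10.30, 10.25, 10.27 and 10.27 log2 CPM with ICI + 27HC and at 10.27, 10.21, 10.25, 10.22 and 10.21 with GW3965 + second compound. Levels with GW3965 were 10.02, 10.02, 10.02, 10.04 and 10.003, and those with ICI were 9.96, 9.94, 9.91, 9.90 and 9.94. With E2 they were 9.54, 9.52, 9.50, 9.53 and 9.53. In order of means, GSK2033 + 27HC came first with no overlap, followed by ICI + 27HC, GSK2033 and GW3965 + second compound, whose libraries overlapped as neighbours. Below them 27HC and GW3965 overlapped, ICI stood alone, and Vehicle and E2 overlapped. The group means spanned 2.53-fold, with a within-group SD of 0.034 log2 CPM. E2 differed from Vehicle by -0.06 ± 0.022 (adjusted p = 0.141).

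Hsp90b1 (ENSMUSG00000020048, chr10:86690209-86705509 on the minus strand) encodes GRP94, the HSP90 chaperone of the same compartment, which in macrophages is needed for Toll-like receptors to reach the surface. It overlaps a gene on the opposite strand and a pair of unnamed genes on its own, and 4.09% of its 31-base words occur in transcripts of other genes, so part of its count is uncertain. Its highest levels were 9.96, 9.94, 9.93, 9.88 and 9.86 log2 CPM with GW3965 + second compound, followed by 9.77, 9.88, 9.82, 9.75 and 9.68 with GSK2033 + 27HC and 9.79, 9.73, 9.77, 9.76 and 9.76 with GW3965, against 9.30 to 9.39 (median 9.35) with Vehicle. GSK2033 + 27HC overlapped both other groups, and all 3 lay above every Vehicle library. The changes were 0.57 ± 0.031 (adjusted p = 1.21e-20) with GW3965 + second compound, 0.44 ± 0.031 (adjusted p = 1.43e-16) with GSK2033 + 27HC and 0.42 ± 0.031 (adjusted p = 8.50e-16) with GW3965. GSK2033, which gave Hspa5 its widest change of any single compound, raised Hsp90b1 by only 0.09 ± 0.031 (adjusted p = 0.0148), and the GSK2033 libraries, at 9.51, 9.47, 9.45, 9.36 and 9.38, overlapped those of Vehicle. That call was lost without GSK2033 replicate 1, where adjusted p was 0.0765, and with no filter on low counts, where it was 0.0502.

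Dnajb9 and Sdf2l1 encode partners of BiP: DNAJB9 (ERdj4) is a J-domain protein that delivers misfolded chains and IRE1 to BiP, and SDF2L1 belongs to a complex that sustains the BiP cycle. Dnajb9 (ENSMUSG00000014905, chr12:44205559-44210326, minus strand) shares 10.8% of its 31-base words with the predicted gene Gm6568, so its count could be split. Its levels were 6.69, 6.82, 6.77, 6.79 and 6.82 log2 CPM with GSK2033 + 27HC, 6.25, 6.21, 6.28, 6.16 and 6.26 with GSK2033, and 6.04, 6.14, 6.17, 6.06 and 6.11 with 27HC. In the Vehicle libraries they ran from 5.75 to 5.84 (median 5.76). As for Hspa5, the combination lay above all libraries of every other group, and each single compound lay above all Vehicle libraries.

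The fold change of Dnajb9 against Vehicle was 2.01 with GSK2033 + 27HC (adjusted p = 5.81e-30), 1.37 with GSK2033 (adjusted p = 9.37e-17) and 1.26 with 27HC (adjusted p = 1.87e-12). Dnajb9 with ICI + 27HC, at 6.34, 6.35, 6.31, 6.36 and 6.36, stood alone in second place. Those with GW3965 + second compound (6.20, 6.20, 6.26, 6.16 and 6.14) and GW3965 (6.16, 6.18, 6.15, 6.09 and 6.03) overlapped each other. ICI, at 5.82, 5.80, 5.81, 5.90 and 5.93, and E2, at 5.83, 5.84, 5.82, 5.85 and 5.86, overlapped Vehicle. With ICI the change was 0.08 ± 0.031 (adjusted p = 0.0587), and it passed the threshold without Vehicle replicate 4 (0.0395) or ICI replicate 3 (0.0482).

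Sdf2l1 (ENSMUSG00000022769, chr16:17130138-17132383, minus strand) had another order of groups. It was at 7.13, 7.22, 7.13, 7.04 and 7.11 log2 CPM with GW3965 + second compound, 6.85, 6.81, 6.76, 6.70 and 6.71 with GW3965, and 6.57, 6.62, 6.62, 6.63 and 6.64 with 27HC, against 5.81 to 5.98 (median 5.90) with Vehicle. GW3965 + second compound stood above every other group, and all 3 groups stood above Vehicle, by 2.35-fold (adjusted p = 6.96e-31), 1.83-fold (adjusted p = 7.14e-25) and 1.65-fold (adjusted p = 1.58e-21) in that order. Levels were 6.82, 6.80, 6.90, 6.81 and 6.80 with ICI + 27HC and 6.80, 6.74, 6.81, 6.81 and 6.83 with GSK2033 + 27HC, which overlapped each other and GW3965. ICI, at 6.43, 6.43, 6.46, 6.48 and 6.57, and GSK2033, at 6.35, 6.43, 6.32, 6.33 and 6.42, overlapped each other and lay above Vehicle. E2 libraries, at 5.81, 5.72, 5.93, 5.87 and 5.83, overlapped those of Vehicle. GSK2033 thus ranked above GW3965 for Hspa5 and below it for Sdf2l1; the difference between those groups was not tested.

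Calreticulin and calnexin are the lectin chaperones that hold glycoproteins through their trimmed sugars, and calreticulin also buffers calcium and helps to load MHC class I molecules. Calr (ENSMUSG00000003814, chr8:84841850-84846934, minus strand) shares 1.93% of its 31-base words with a pseudogene. It was at 11.12, 11.15, 11.13, 11.14 and 11.17 log2 CPM with GW3965, 11.04, 11.09, 11.09, 11.12 and 11.18 with ICI, and 11.01, 11.04, 11.07, 11.04 and 11.03 with 27HC, against 10.69 to 10.79 (median 10.71) with Vehicle. The 3 groups lay above all Vehicle libraries, by 0.41 ± 0.021 (adjusted p = 3.48e-21), 0.38 ± 0.021 (adjusted p = 7.24e-19) and 0.31 ± 0.021 (adjusted p = 1.57e-16) in that order.

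GSK2033 + 27HC and ICI + 27HC were not the highest groups for Calr. Its levels were 10.91, 10.96, 10.97, 10.99 and 11.01 with GSK2033 + 27HC and 10.95, 10.93, 10.90, 10.89 and 10.91 with ICI + 27HC, below GW3965 and overlapping GSK2033. Canx (ENSMUSG00000020368, chr11:50293961-50325673, minus strand) changed least of the 10, with means spanning 1.23-fold, and every neighbouring pair of groups in its order overlapped. Its means were 9.78 ± 0.062 (SD) with GSK2033 + 27HC, 9.75 ± 0.034 with GW3965 and 9.59 ± 0.019 with 27HC, against 9.48 ± 0.062 with Vehicle. With GSK2033 alone its change was 0.05 (95% interval -0.003 to 0.11, adjusted p = 0.133), and it passed the threshold without Vehicle replicate 5 (0.0238) or GSK2033 replicate 3 (0.0489).

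Protein disulfide isomerases form and reshuffle disulfide bonds in folding chains. PDIA3 (ERp57) works with calreticulin and calnexin on glycoproteins, PDIA4 (ERp72) is a general isomerase, and PDIA6 (P5) binds BiP and, in studies of stressed cells, limits the activity of IRE1. Of the 3 genes, Pdia6 (ENSMUSG00000020571, chr12:17266545-17284770, plus strand) changed most, with means spanning 1.61-fold. Its levels were 8.64, 8.68, 8.63, 8.61 and 8.61 log2 CPM with GSK2033 + 27HC, and 8.59, 8.63, 8.64, 8.54 and 8.57 with GW3965 + second compound, against 7.89 to 8.01 (median 7.95) with Vehicle. These top groups overlapped each other and lay above all others, and their folds against Vehicle were 1.60 (adjusted p = 2.27e-28) and 1.56 (adjusted p = 9.99e-28). With 27HC alone Pdia6 was at 8.30, 8.32, 8.39, 8.34 and 8.25, 1.29-fold above Vehicle (adjusted p = 2.62e-18).

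Pdia4 (ENSMUSG00000025823, chr6:47796141-47813430, minus strand) was tightest between Vehicle libraries, from 7.25 to 7.28 log2 CPM (median 7.27). It was at 7.70, 7.69, 7.73, 7.71 and 7.69 with GSK2033 + 27HC and at 7.19, 7.19, 7.20, 7.24 and 7.19 with E2. The combination stood above all other groups, at 1.35-fold over Vehicle (adjusted p = 6.44e-24), and E2 stood below all others. The E2 difference of -0.065 ± 0.019 was small (adjusted p = 0.0408). It missed the threshold with no filter on low counts (0.163), with only the E2 and Vehicle groups in the fit (0.145), and without any one of Vehicle replicates 1, 3, 4 and 5 or of E2 replicates 1, 2, 3 and 5 (0.065 to 0.091).

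Pdia3 (ENSMUSG00000027248, chr2:121413775-121438687, plus strand) had its highest levels with the LXR agonist: 10.02, 9.99, 9.97, 10.04 and 9.97 log2 CPM with GW3965 + second compound and 9.96, 9.98, 9.91, 9.96 and 9.95 with GW3965, against 9.65 to 9.72 (median 9.69) with Vehicle. These groups overlapped each other and lay above all the rest, at 1.24-fold (adjusted p = 8.59e-19) and 1.201-fold (adjusted p = 2.52e-16) over Vehicle. GSK2033 changed it by 0.05 ± 0.019 (adjusted p = 0.0313), a call lost without Vehicle replicates 1 or 2 or GSK2033 replicates 1 or 2 (adjusted p of 0.0695 to 0.185), with no filter on low counts (0.148) and with only those groups in the fit (0.127). Pdia3 and Pdia6 each overlap a gene on the opposite strand, and the libraries mark strand, but how strand was used in quantification is not given in the sources used here.

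Xbp1 (ENSMUSG00000020484, chr11:5520659-5525893, plus strand) encodes the transcription factor of the IRE1 branch, which also induces its own transcription; gene counts do not separate the spliced from the unspliced transcript. It was at 7.78, 7.82, 7.90, 7.83 and 7.81 log2 CPM with ICI + 27HC, 7.78, 7.71, 7.79, 7.78 and 7.78 with GSK2033 + 27HC, and 7.62, 7.70, 7.71, 7.68 and 7.64 with 27HC, against 7.22 to 7.31 (median 7.24) with Vehicle. ICI + 27HC and GSK2033 + 27HC overlapped, and every group with 27HC lay above all Vehicle libraries. The fold over Vehicle was 1.495 (adjusted p = 4.58e-25) with ICI + 27HC, 1.43 (adjusted p = 4.00e-23) with GSK2033 + 27HC and 1.34 (adjusted p = 1.47e-19) with 27HC. GSK2033, GW3965 and ICI alone overlapped each other, with means of 7.57 ± 0.027, 7.57 ± 0.014 and 7.55 ± 0.033 (SD), and E2, at 7.30, 7.28, 7.34, 7.24 and 7.25, overlapped Vehicle. Among the single compounds 27HC had the highest levels of Xbp1, clear of the other 4.

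The next comparisons ask whether a second ligand changed the level reached with the first. Adding GSK2033 to 27HC raised 8 of the 10 genes above 27HC alone and lowered 1, against 21.1% and 21.7% of all genes tested, and the median change was 0.19. The BiP pair moved most, Hspa5 by 0.79 ± 0.023 (adjusted p = 1.27e-30) and Dnajb9 by 0.68 ± 0.031 (adjusted p = 1.04e-22), followed by Pdia6 at 0.31 ± 0.024 and Pdia4 at 0.26 ± 0.020. Calr was lower by 0.07 (log2 fold change -0.068 ± 0.022, adjusted p = 0.0115), a call lost without GSK2033 + 27HC replicates 1, 2 or 3 (adjusted p of 0.0634 to 0.151), with no filter on low counts (0.0837) and with scaling by library totals only (0.495). For Pdia3 the change was 0.03 (95% interval -0.01 to 0.07, adjusted p = 0.289), and 0.08 with library totals only (adjusted p = 8.62e-04).

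Adding ICI to 27HC had a smaller and mixed outcome: 5 genes were higher and 3 lower than with 27HC alone, against 16.8% and 17.4% of all genes, with a median of 0.08. Dnajb9 (0.24 ± 0.032, adjusted p = 3.89e-08), Sdf2l1 (0.21 ± 0.037), Hspa5 (0.20 ± 0.022), Xbp1 (0.16 ± 0.025) and Pdia6 (0.11 ± 0.024) rose. Calr (-0.12 ± 0.022, adjusted p = 2.08e-05), Pdia4 (-0.08 ± 0.020, adjusted p = 0.00158) and Pdia3 (-0.05 ± 0.020, adjusted p = 0.0284) fell. The Pdia3 call was lost with library totals only (adjusted p = 0.112), with no filter (0.111), with only the groups compared (0.0775), and without 27HC replicate 3 or ICI + 27HC replicates 1, 2 or 4 (0.0566 to 0.0775). Canx gave 0.00 (95% interval -0.06 to 0.06) and Hsp90b1 0.06 (-0.01 to 0.12).

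The second compound with GW3965 raised 6 genes above GW3965 alone and lowered 0, against 7.93% and 9.56% of all genes, with a median of 0.12. Sdf2l1 (0.36 ± 0.036, adjusted p = 1.47e-10), Pdia6 (0.22 ± 0.024), Hspa5 (0.21 ± 0.022), Hsp90b1 (0.15 ± 0.032), Xbp1 (0.12 ± 0.025) and Pdia4 (0.11 ± 0.020) rose. Calr gave 0.00 (95% interval -0.05 to 0.04), and Dnajb9, Canx and Pdia3 also missed the threshold; with library totals only Dnajb9 (adjusted p = 0.0193) and Pdia3 (0.00685) passed it.

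Between the oxysterol and the synthetic agonist, 27HC against GW3965 gave 1 gene higher and 5 lower, against 12.8% and 12.5% of all genes, with a median of -0.08. Xbp1 was higher with 27HC (0.10 ± 0.025, adjusted p = 0.00253). Hsp90b1 (-0.17 ± 0.032, adjusted p = 6.45e-05), Sdf2l1 (-0.15 ± 0.037), Canx (-0.15 ± 0.029), Pdia3 (-0.12 ± 0.020) and Calr (-0.10 ± 0.022) were lower with 27HC. Hspa5 differed by 0.05 (95% interval 0.01 to 0.10, adjusted p = 0.0841) and passed the threshold under 4 settings, with adjusted p from 0.00909 to 0.045, and without 27HC replicate 5 (0.00977) or GW3965 replicate 4 (0.0416). Pdia4 passed it with library totals only (0.00658) and without 27HC replicate 5 (0.0104) or GW3965 replicate 1 (0.0197), and Pdia6 without 27HC replicate 3 (0.0327). Doses are not given in the labels, so a difference in dose and a difference in ligand cannot be told apart.

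**Figure D3:**
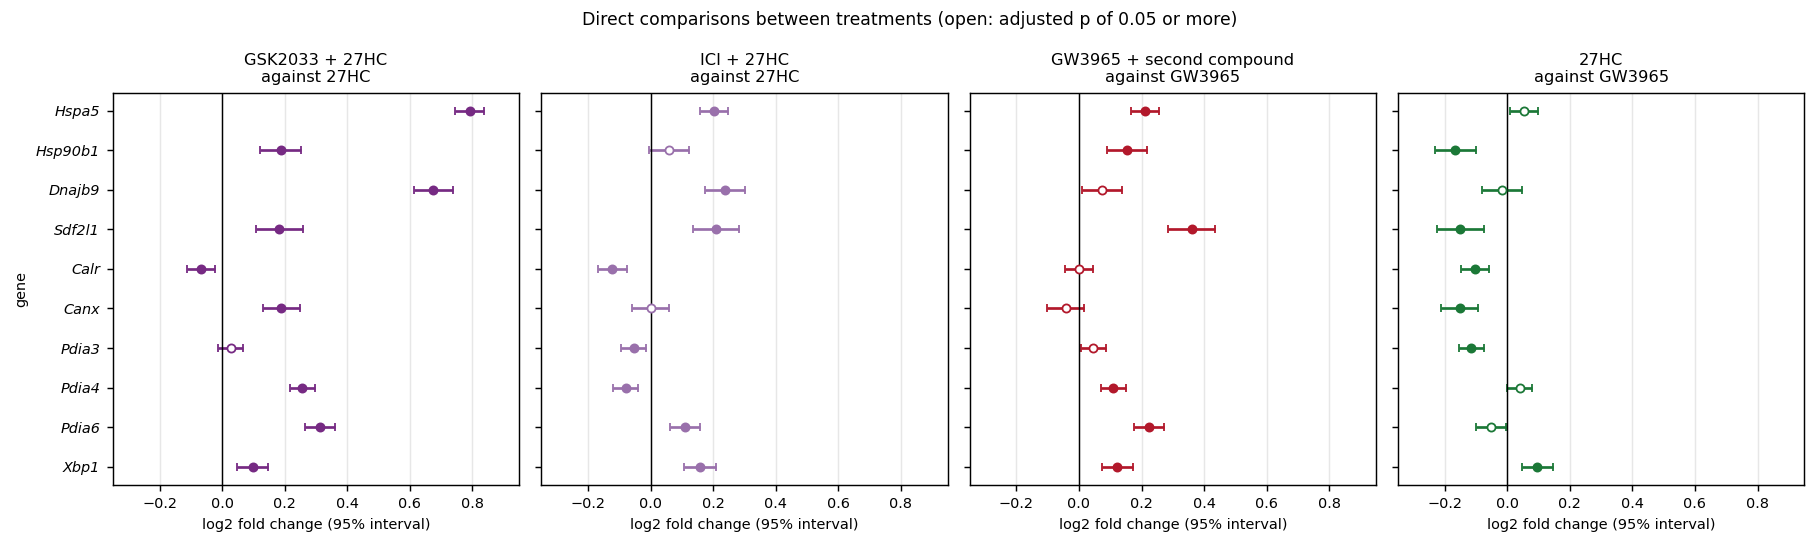
Log2 fold change with 95% interval (horizontal axis) of each gene in 4 comparisons between treatments, one panel each; filled points are called and open points are not. Hspa5 and Dnajb9 stand at 0.79 and 0.68 when GSK2033 is added to 27HC, and 7 of 10 points in the panel of 27HC against GW3965 lie below 0, with Hsp90b1 lowest.

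The change with 27HC could be read in 3 settings: alone, with GSK2033 present and with ICI present. With GSK2033 present, GSK2033 + 27HC against GSK2033 gave 9 genes higher and 0 lower, against 17.1% and 18.8% of all genes, and a median of 0.29. With ICI present, ICI + 27HC against ICI gave 6 higher and 2 lower, against 19.7% and 20.7%, and a median of 0.15. Hspa5 rose in all 3 settings, by 0.62 ± 0.023 with GSK2033 present, 0.35 ± 0.023 with ICI present and 0.49 ± 0.022 alone. Calr, in contrast, changed by 0.04 ± 0.022 (adjusted p = 0.137) with GSK2033 present and by -0.19 ± 0.022 (adjusted p = 1.46e-09) with ICI present, against 0.31 ± 0.021 alone. With GSK2033 present Calr passed the threshold with library totals only (0.10, adjusted p = 8.77e-05) and without replicate 1 of GSK2033 + 27HC (0.0195) or of GSK2033 (0.0434). With ICI present Pdia3 also fell, by 0.07 (adjusted p = 0.00434), a call lost with library totals only (0.239).

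Interaction terms test these differences directly. For GSK2033 with 27HC, 4 genes had a positive and 3 a negative interaction, against 9.34% and 10.3% of all genes. The combination exceeded the sum of both log2 changes for Dnajb9 (0.22 ± 0.044, adjusted p = 1.77e-04), Canx (0.14 ± 0.040, adjusted p = 0.0123) and Hspa5 (0.13 ± 0.031, adjusted p = 0.00153), and for Pdia4 by 0.075 ± 0.028, at the edge of the threshold (adjusted p = 0.0499) and lost under 4 settings (0.0605 to 0.0947) and without any one of Vehicle replicates 1 to 6, 27HC replicates 1, 2, 4 and 5, GSK2033 replicates 2, 3 and 4 or GSK2033 + 27HC replicate 3 (0.0505 to 0.108). Hsp90b1, at 0.09 ± 0.045, passed the threshold with library totals only (0.0297) and without GSK2033 + 27HC replicate 5 (0.0342). It fell short of the sum for Sdf2l1 (-0.29 ± 0.052, adjusted p = 2.85e-05), Calr (-0.27 ± 0.031, adjusted p = 4.56e-09) and Xbp1 (-0.23 ± 0.035, adjusted p = 1.36e-06).

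For ICI with 27HC, 1 gene had a positive and 9 a negative interaction, against 7.39% and 9.97% of all genes, with a median of -0.16. Calr had the strongest, at -0.50 ± 0.031 (adjusted p = 7.98e-17), followed by Sdf2l1 at -0.37 ± 0.052 (adjusted p = 3.08e-07) and the calreticulin partner Pdia3 at -0.22 ± 0.027 (adjusted p = 2.93e-08). Dnajb9 was the positive one, at 0.16 ± 0.044 (adjusted p = 0.00743). Hsp90b1, at -0.12 ± 0.045, was at the edge of the threshold (adjusted p = 0.049) and was lost under 4 settings (0.0556 to 0.22) and without any one of Vehicle replicates 2 to 6, 27HC replicates 1 to 4, ICI replicates 1, 2 and 5 or ICI + 27HC replicates 3, 4 and 5 (0.0532 to 0.139). Canx missed it with library totals only (0.05003). Dnajb9 thus carried a positive interaction with both antagonists, and Sdf2l1, Calr and Xbp1 a negative one with both. Both terms use the same 27HC and Vehicle libraries, so their shared signs are not independent of each other.

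**Figure D4:**
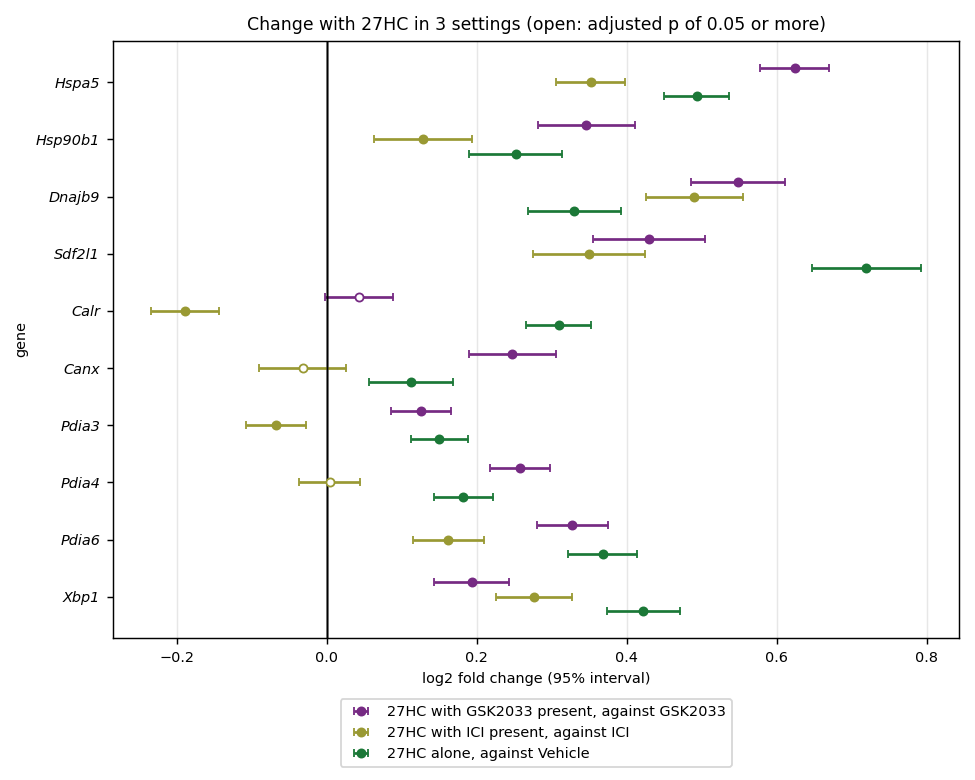
Log2 fold change with 27HC (horizontal axis, with 95% interval) for each gene with GSK2033 present, with ICI present and alone; open points have an adjusted p of 0.05 or more. Hspa5 rises in all 3 settings, while Calr stands at 0.04, -0.19 and 0.31 in that order.

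Scaling moved the balance of calls over all genes in some comparisons. With library totals only, the higher share of all called genes was 61.1% in place of 49.4% for GSK2033 + 27HC against 27HC, 62.7% in place of 47.6% for GSK2033 + 27HC against GSK2033, and 58.3% in place of 47.7% for GSK2033 + 27HC against Vehicle. It was 58.7% in place of 45.3% for GW3965 + second compound against GW3965, 60.9% in place of 50.4% for 27HC against GW3965, 63.2% in place of 47.6% for the GSK2033 interaction and 54.2% in place of 42.6% for the ICI interaction. No called change of a member gene turned its direction under that scaling.

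Across the 9 group means the members followed several patterns, given as a description with n = 9 groups that share 1 sequencing pool. Hspa5 ran closest with Dnajb9 (r = 0.963), Pdia4 (0.943) and Pdia6 (0.908). Sdf2l1 ran with Hsp90b1 (0.956) and Pdia6 (0.949), and Calr with Pdia3 (0.919), its partner on glycoproteins. Dnajb9 and Calr were least alike (0.294), and Hspa5 and Calr stood at 0.473.

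Among 8357 other named genes with a mean of at least 5 CPM and a called difference among groups, those most like Hspa5 over the 9 group means were Sec24d (r = 0.986), a COPII cargo adaptor, Impact (0.984), a regulator of the eIF2 kinase GCN2, Hyou1 (0.983), an HSP70-family chaperone of the endoplasmic reticulum, Tomm40 (0.983), the pore of the outer mitochondrial membrane, and Tmed9 (0.982), a cargo receptor. Those most like Dnajb9 were Gorasp2 (0.988), Sec24d (0.984), Uap1 (0.982), which makes the sugar donor UDP-GlcNAc, and Ssr3 (0.981), a translocon subunit. Those most like Xbp1 were Prrc1 (0.988), Vma21 (0.984), which helps to assemble the vacuolar ATPase, Vps35 (0.982), a retromer subunit, Alg3 (0.981), a mannosyltransferase of N-glycosylation, and Exosc1 (0.98).

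The wider secretory pathway was read through lists of other genes, also chosen with earlier results of these data known. Their counts stand beside the shares of all genes called higher and lower against Vehicle, which were 24.1% and 26.4% with GSK2033 + 27HC, 26.6% and 26.4% with ICI + 27HC, 23.1% and 21.1% with GW3965, 18.4% and 17.9% with GSK2033 and 20.3% and 20.0% with 27HC, and beside medians over all genes within 0.01 of 0. Of 22 other folding factors of the endoplasmic reticulum, 15 rose and 5 fell with GSK2033 + 27HC against Vehicle, with a median of 0.27, while 10 rose and 6 fell with 27HC, with a median of -0.01. The 5 that fell with the combination are near the 26.4% of all genes that did. The chaperone Hyou1 rose by 1.16 ± 0.025 with GSK2033 + 27HC, 0.48 ± 0.026 with GSK2033 and 0.45 ± 0.026 with 27HC. The secreted stress protein Manf rose by 0.84 ± 0.031 with the combination and 0.40 ± 0.031 with 27HC. In the other direction Cnpy3, a cochaperone of GRP94 for Toll-like receptors, fell by 0.63 on the log2 scale with GSK2033 + 27HC and by 0.38 with 27HC. With E2, 1 rose and 1 fell, where 2.2% of all genes were called higher and 2.49% lower.

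Of 17 other disulfide isomerases and oxidases, 8 rose and 6 fell with GSK2033 + 27HC (median 0.06), and 4 rose and 4 fell with 27HC (median -0.02). The counts with 27HC are near the 20.3% and 20.0% of all genes called higher and lower. The classical isomerase P4hb rose by 0.61 ± 0.032, Pdia5 by 0.90 ± 0.057 and the oxidase Ero1l by 1.02 ± 0.065 with the combination. Of 23 genes of the degradation pathway that returns misfolded proteins to the cytosol, 16 rose and 5 fell with GSK2033 + 27HC and 7 rose and 3 fell with 27HC, with medians of 0.22 and 0.04. The 5 that fell with the combination are near the share over all genes (26.4%), and the counts with 27HC are not far from theirs (20.3% and 20.0%). Herpud1, a scaffold of that pathway, rose by 0.88 ± 0.042 with the combination and 0.60 with GSK2033.

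Lists that handle newly made secretory proteins moved almost wholly in one direction. Of 23 genes of the translocon and signal peptide processing, 18 rose and 0 fell with GSK2033 + 27HC, 15 rose and 0 fell with GSK2033 and 14 rose and 0 fell with 27HC, with medians of 0.46, 0.15 and 0.12. Sec61a1, the channel itself, rose by 0.68, 0.34 and 0.16 in those groups. Of 24 N-glycosylation genes, 21 rose and 1 fell with the combination and 13 rose and 0 fell with 27HC; Magt1, an oligosaccharyltransferase subunit, rose by 0.60 and 0.35. Of 23 genes of COPII and COPI vesicles and cargo receptors, 20 rose and 0 fell with the combination, 17 rose and 0 fell with GSK2033 and 13 rose and 1 fell with 27HC. Kdelr2, the receptor that returns BiP and its kin from the Golgi, rose by 0.96, 0.57 and 0.19.

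Of 6 genes for the stress sensors and the proteases that cut ATF6, 3 rose with GSK2033 + 27HC: Atf6 by 0.48 ± 0.038, Ern1, which encodes IRE1, by 0.40 ± 0.046, and Eif2ak3, which encodes PERK, by 0.40 ± 0.047. With GSK2033 alone Eif2ak3 fell by 0.28 and Atf6b rose by 0.10. Of 16 genes of the PERK and ATF4 branch, 14 rose and 1 fell with ICI + 27HC (median 1.15), 14 rose and 0 fell with GSK2033 + 27HC (median 0.95), 12 rose and 0 fell with GSK2033 (median 0.68), and 6 rose and 4 fell with 27HC (median 0.09). The 4 that fell with 27HC are near the 20.0% of all genes that did. Trib3, a pseudokinase gene induced by ATF4, rose by 2.52 with ICI + 27HC, 2.69 with GSK2033 + 27HC, 1.84 with GSK2033 and 0.56 with 27HC. Atf4 itself rose by 1.72, 1.34, 0.89 and 0.29. ICI + 27HC thus had the highest median for this branch, and for Hspa5 it lay 0.59 log2 CPM below GSK2033 + 27HC. ATF4 responds to other kinases as well as to PERK, and which of them acted was not measured.

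Chaperones of other compartments gave a comparison. Of 11 mitochondrial chaperones and proteases, 11 rose with GSK2033 + 27HC and 9 with 27HC, with medians of 0.48 and 0.18, and none fell in these comparisons; Hspa9, the mitochondrial HSP70, rose by 1.04 and 0.28. Of 22 cytosolic chaperones, 14 rose and 4 fell with the combination and 12 rose and 3 fell with 27HC, with medians of 0.10 and 0.12. The numbers that fell do not exceed the shares over all genes, 26.4% with the combination and 20.0% with 27HC. Chaperone genes called higher were thus not confined to the endoplasmic reticulum. With E2, 2.2% of all genes were called higher and 2.49% lower. In that comparison 0 genes of the translocon, vesicle, cytosolic and mitochondrial lists were called in either direction, which is near those shares. In the PERK and ATF4 branch 1 of 16 rose and 4 fell with E2, among them Ddit3 at -0.47.

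**Figure D5:**
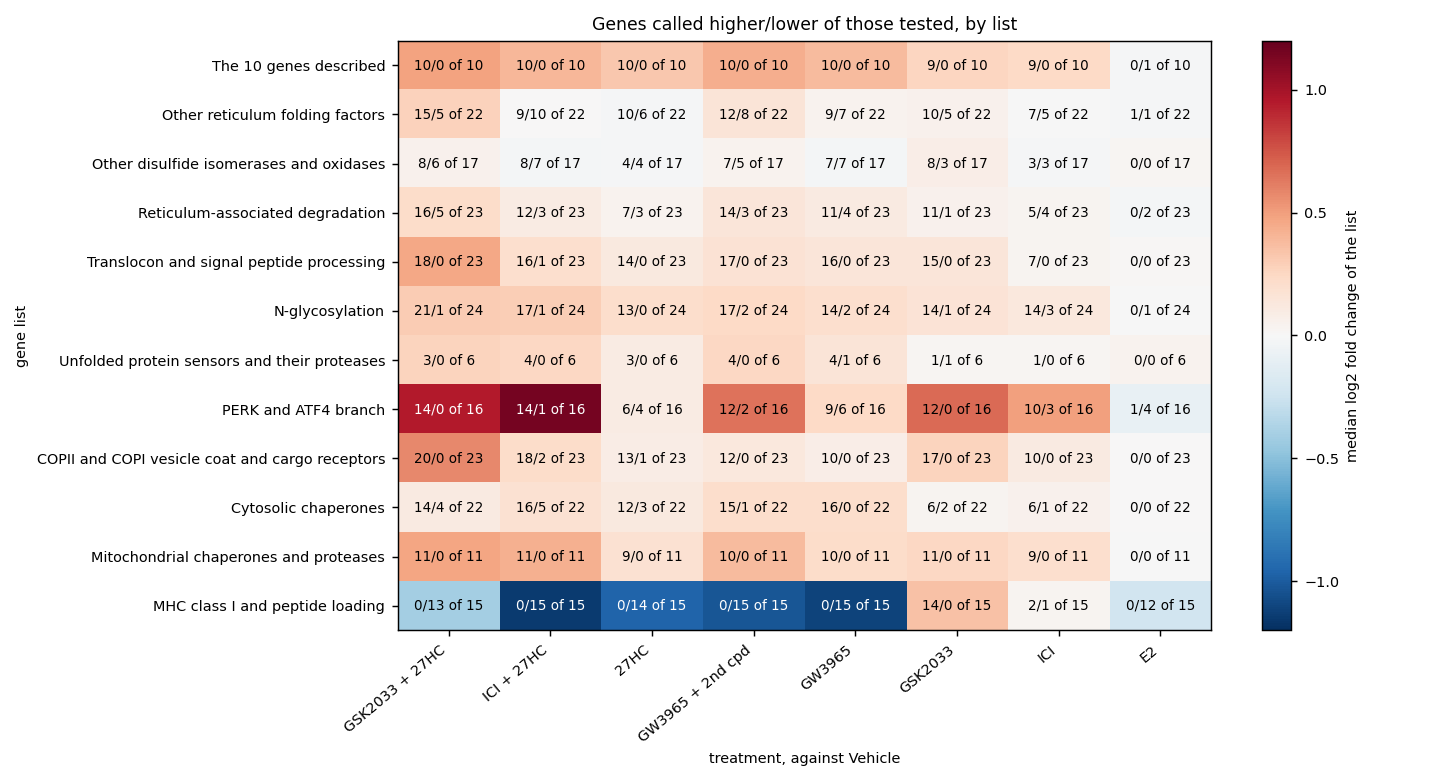
For the 10 genes and 11 other gene lists (rows) and each treated group against Vehicle (columns), the numbers of genes called higher and lower of those tested, coloured by the median log2 fold change of the list. The PERK and ATF4 branch has its highest median, 1.15, with ICI + 27HC, and MHC class I genes are lower in every group but GSK2033 and ICI.

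Calreticulin and PDIA3 also belong to the complex that loads peptides onto MHC class I molecules. Most other genes of that pathway were called in the opposite direction to them with 27HC, GW3965 and every combination, and in the same direction with GSK2033. Of 15 MHC class I and peptide loading genes without those members, 0 rose and 14 fell with 27HC (median -0.96). With GW3965 0 rose and 15 fell (median -1.11), and with GSK2033 14 rose and 0 fell (median 0.35), against 18.4% and 17.9% of all genes. With GSK2033 + 27HC 0 rose and 13 fell (median -0.41), where Calr rose by 0.24 and Pdia3 by 0.18. All 15 fell with ICI + 27HC and with GW3965 + second compound. Of all genes, 20.0% to 26.4% were called lower with 27HC, GW3965 and the combinations. With ICI 2 rose and 1 fell, against 13.9% and 12.5% of all genes. H2-K1 fell by 1.24 with 27HC and by 1.13 with GW3965 on the log2 scale, where Calr rose by 0.31 and 0.41 and Pdia3 by 0.15 and 0.27. With GSK2033, Calr rose by 0.20 ± 0.021 (adjusted p = 2.21e-10) and Pdia3 by 0.05 ± 0.019, a call lost without any one of Vehicle replicates 1 and 2 or GSK2033 replicates 1 and 2.

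Markers of other cells were read beside these results. Plasma cells are rich in this machinery. The summed level of 7 plasma cell markers lay between 106.5 and 185.3 CPM in libraries of the treated groups other than E2. It lay between 181.1 and 195.4 CPM with E2 and between 162 and 177.4 CPM with Vehicle. Almost all of it was Sdc1 and Prdm1, while Mzb1 and Tnfrsf17 had at most 3 counts in every library. Stromal markers summed to 3773 ± 159.9 CPM with GSK2033 + 27HC and 3564 ± 178 CPM with 27HC, against 4621 ± 305.3 CPM (SD) with Vehicle, led by Col1a1, Col1a2 and Sparc, and Dcn and Lum were near 0. Macrophage markers summed to 13870 ± 656 CPM with GSK2033 + 27HC, 15590 ± 502.8 CPM with 27HC and 22570 ± 717.1 CPM with E2, against 21520 ± 811.1 CPM with Vehicle. Of these markers Cd68 had a higher mean with GSK2033 + 27HC (1387 CPM) and 27HC (1417 CPM) than with Vehicle (1192 CPM). The part of these shifts in the results was not tested. Mitochondrially encoded transcripts took 1.34% ± 0.114 of counts with GSK2033 + 27HC, 1.9% ± 0.0981 with 27HC and 2.17% ± 0.119 with GW3965, against 1.60% ± 0.103 with Vehicle (SD), and leaving them out changed no direction of a called member.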

How the data were processed

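Per the labels' protocols, RNA was extracted with RNeasy Plus columns, polyadenylated RNA was made into TruSeq stranded libraries, and the pool was sequenced as single reads of 100 nt. The deposited values are estimated counts per gene for 46 libraries, made by the authors with kallisto 0.44.0 on GRCm38, per the submitters' processing notes; how transcripts were summed to genes, and any length correction, are not given in the sources used here. GENCODE M21 gave symbols to 24243 of 24671 genes.

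Estimated counts were rounded, filtered by filterByExpr (13838 genes kept) and scaled by TMM. edgeR 4.0.16 fitted 1 mean per group with robust quasi-likelihood dispersions (37 residual degrees of freedom; biological coefficient of variation 7.55%). Contrasts were adjusted by Benjamini-Hochberg over all genes, with a threshold of 0.05. Log2 CPM used a prior count of 2, and intervals are 95% intervals from the SE. The fit was tested on simulated data. Alternatives were RLE scaling, library totals only, DESeq2 1.42.0, 2 other filters, leaving out mitochondrially encoded genes, a replicate block, only the groups compared, and leaving out each library.

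Members and lists were chosen with earlier results of these data known. All members are named; of other lists, up to 4 genes with the smallest p, and for likeness the 5 highest correlations, of which 1 is not reported here. Over 180 same-number pairs the correlation of deviations over all genes tested ran from -0.072 to 0.1. The main fit did not pair libraries by number. Some values still ran with the number. Mitochondrially encoded transcripts took more of the counts in replicate 5 than in replicate 1 of every group. With GSK2033 + 27HC they took 1.51% and 1.21%. Hspa5 and Hsp90b1 were lower in replicate 5 than in replicate 1 of every group. These correlations cannot tell whether the numbers mark pairs or a batch. No libraries were identical, and chi-square per degree of freedom between replicates ran from 3.91 to 12.2.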

Additional observations from a re-analysis of the deposited data

Results flagged for a closer look

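In 8 of 90 combinations of gene and group, 1 library stood far from the others by Dixon's criterion, which chance meets in about 1 in 20 groups. Dnajb9 was at 5.84 log2 CPM in Vehicle replicate 4, above 5.75 to 5.78 in the others. Sdf2l1 was at 6.90 in ICI + 27HC replicate 3, above 6.80 to 6.82. Pdia4 was at 7.24 in E2 replicate 4, above 7.19 to 7.20, and at 7.40 in ICI + 27HC replicate 5, above 7.36 to 7.37. Xbp1 was at 7.31 in Vehicle replicate 3, above 7.22 to 7.25. It was at 7.49 in ICI replicate 1, below 7.56 to 7.58, at 7.55 in GW3965 replicate 4, below 7.58, and at 7.71 in GSK2033 + 27HC replicate 2, below 7.78 to 7.80. No library appeared more than once in this list.

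The change with 27HC differed, by the interaction test of edgeR, between cells with and without GSK2033 for 7 genes. The differences were 0.131 for Hspa5 (adjusted p = 0.00153), 0.218 for Dnajb9, 0.135 for Canx and 0.075 for Pdia4 (adjusted p = 0.0499), and -0.29 for Sdf2l1, -0.266 for Calr and -0.229 for Xbp1. Between cells with and without ICI it differed for all 10 genes: -0.141 for Hspa5, -0.124 for Hsp90b1, 0.16 for Dnajb9, -0.37 for Sdf2l1, -0.498 for Calr, -0.144 for Canx, -0.218 for Pdia3, -0.178 for Pdia4, -0.205 for Pdia6 and -0.146 for Xbp1.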

How the results depend on the processing

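Of 160 gene and comparison results, 159 kept direction and side of the threshold with DESeq2, 158 with RLE scaling, 157 with the replicate block, 156 with a filter of at least 1 CPM in 5 libraries and with mitochondrially encoded genes left out, 153 with only the groups compared, 151 with no filter on low counts and 143 with library totals only; over leave-one-out fits 1821 of 1900 did. No called change reversed. The number of members called with E2 against Vehicle, 1 in the full fit, was 0 with no filter and with only the groups compared, 2 with the replicate block, which added Hspa5 (-0.068, adjusted p = 0.0297), and 0 to 1 in leave-one-out fits. The replicate block changed 2 more calls: Hspa5 in 27HC against GW3965 (adjusted p = 0.045) and Hsp90b1 in the GSK2033 interaction (0.0359); 12 of 46 libraries correlated best with their own number.

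Uncalled values near 0 changed sign as follows. With library totals only, Dnajb9 was 0.013 in 27HC against GW3965, Canx 0.007 in ICI + 27HC against ICI, Calr 0.025 in GW3965 + second compound against GW3965, and Pdia3 0.024 and Pdia6 0.008 in the GSK2033 interaction. With no filter Dnajb9 was 0.0 and Calr 0.006 in the same comparisons. Canx in ICI + 27HC against 27HC was -0.002 with RLE, -0.003 with DESeq2, -0.01 with the 1 CPM filter, -0.002 without mitochondrially encoded genes and -0.001 with only the groups compared. Pdia4 in ICI + 27HC against ICI was -0.002 with the 1 CPM filter, and Calr in GW3965 + second compound against GW3965 was 0.002 without mitochondrially encoded genes and 0.005 with only the groups compared. In leave-one-out fits these values ran from -0.031 to 0.01 for Dnajb9, -0.009 to 0.014 for Canx in ICI + 27HC against 27HC, -0.002 to 0.016 for Pdia4 and -0.005 to 0.01 for Calr, and from -0.02 to 0.005 for Pdia6 in E2 against Vehicle; the cause was not tested. Members called in leave-one-out fits ranged from 7 to 10 with GSK2033 against Vehicle and from 6 to 8 in 27HC against GW3965. The lowest count of a member in any library was 1073 (Dnajb9), and the part of counting error in calls near the threshold, such as Dnajb9 with ICI, was not tested.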
